A study of Mus musculus with 4 samples.

Results

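The genes of the Wnt pathway were followed through a knockdown of Tox4 in mouse epiblast stem cells. Members were the rows of the expression table whose symbols began with Wnt, Fzd, Dvl, Dkk or Sfrp and a number, or with Tcf7, together with Axin1, Axin2, Nkd1, Nkd2, Lef1, Lrp5, Lrp6, Apc, Gsk3a, Gsk3b, Csnk1a1, Porcn, Wls, Sp5, Znrf3, Rnf43, Lgr4, Lgr5 and Notum. This rule found 48 of 15429 genes. Cdx1, which the rule also names, had no row.

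Polyadenylated RNA was sequenced from OE7, a line of epiblast stem cells derived from the post-implantation mouse embryo that carries the Oct4-Gip transgene, a reporter of Oct4. Cells of both groups, at passages 21 to 25, grew on fibronectin in N2B27 medium with Activin A (20 ng/ml) and with Fgf2 at 12 ng/ml. They were reverse transfected in 6-well plates with 1000 ng of esiRNA, a mixture of short interfering RNAs cut from a long double strand, and 2 µl of lipofectamine 2000. The Luc esiRNA group, the control, had 2 libraries and the Tox4 esiRNA group, in which the esiRNA targeted Tox4, a gene of an HMG-box protein, had 2. All cells came from 1 line. Whether both libraries of a group were cultured separately is not stated in the labels. The p-values therefore reflect library-to-library spread alone, possibly technical.

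Wnt proteins are lipid-modified secreted ligands that bind Frizzled receptors together with the co-receptors Lrp5 and Lrp6. Without a ligand, a destruction complex built on Axin and Apc, with the kinases Gsk3 and casein kinase 1, marks beta-catenin for degradation. With a ligand, Dishevelled proteins help to disable that complex, and beta-catenin enters the nucleus and binds the TCF/LEF factors on target genes, several of which (Axin2, Nkd1, Znrf3, Rnf43, Notum, Dkk1) feed back on the pathway. In the embryo, Wnt signalling is required for the primitive streak, and in epiblast stem cells its activity varies from cell to cell and favours streak-like over neural differentiation.

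The TCF/LEF factors recognise a short core sequence in target genes. The RefSeq table of promoters on GRCm38.p6, with windows from 250 bases before to 50 bases after each start, held 30 of the 48 members in 39 windows. The core was searched as CTTTGAT or CTTTGAA on either strand. It was found in 5 windows (12.8%), those of Sp5, Dkk1, Wnt11, Wnt5b and Gsk3a, against 8.65% of all 32851 windows. The 250 bases before the start are shown for Sp5, a direct target of beta-catenin in many tissues, and for Wnt11, a ligand mostly studied for beta-catenin-independent signalling, with the core in capitals. Those of Axin2, the most widely used readout of the pathway, are shown for comparison and hold neither form of the core in this window.
Sp5, chr2:70474673-70474922, plus strand: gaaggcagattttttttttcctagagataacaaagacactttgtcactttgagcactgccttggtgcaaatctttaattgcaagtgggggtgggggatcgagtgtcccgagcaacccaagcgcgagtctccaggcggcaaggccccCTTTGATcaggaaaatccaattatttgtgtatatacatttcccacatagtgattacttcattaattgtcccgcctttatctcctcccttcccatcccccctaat
Wnt11, chr7:98834862-98835111, plus strand: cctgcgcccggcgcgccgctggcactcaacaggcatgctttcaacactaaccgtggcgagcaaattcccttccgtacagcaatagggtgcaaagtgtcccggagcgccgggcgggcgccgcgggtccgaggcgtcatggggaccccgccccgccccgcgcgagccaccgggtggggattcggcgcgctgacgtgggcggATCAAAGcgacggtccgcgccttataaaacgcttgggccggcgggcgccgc
Axin2, chr11:108920099-108920348, plus strand: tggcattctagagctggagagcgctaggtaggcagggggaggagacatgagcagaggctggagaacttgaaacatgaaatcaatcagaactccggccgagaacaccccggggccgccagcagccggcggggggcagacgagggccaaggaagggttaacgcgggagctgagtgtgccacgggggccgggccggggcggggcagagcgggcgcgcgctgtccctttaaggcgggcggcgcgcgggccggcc
In Sp5 the core CTTTGAT began 104 bases before the start. In Wnt11 it lay on the opposite strand, as ATCAAAG, and began 51 bases before the start.

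Expression was given as FPKM, fragments scaled to gene length and library depth, so levels may be compared between genes as well as between libraries. Whole reads worked back from these values came to between 12778044 and 19008803 per library. Tox4 was at 16.7 and 17.5 FPKM in the Luc libraries and 8.65 and 8.89 FPKM in the Tox4 libraries (17.1 ± 0.573 and 8.77 ± 0.172, SD, n = 2 each). It fell by 0.89 on the log2(FPKM + 1) scale (SE 0.05, limma adjusted p = 0.00228). Differences below are on this scale, which understates those of genes with low values, and were tested with limma across the 12403 genes whose mean reached 1 FPKM, with an adjusted p of 0.05 as the threshold. In the Tox4 libraries 234 genes (1.89%) were higher and 325 (2.62%) lower, 4.51% in all. Epiblast markers (8 genes, Pou5f1, Nanog and Fgf5 among them) summed to 1127 to 1145 FPKM in the Luc libraries and 1131 to 1161 FPKM in the Tox4 libraries, with 1, Sox2, higher past the threshold. Pou5f1 alone gave 582 to 613 FPKM of it in each library, and Fgf5, Otx2, Dnmt3b and Pou3f1 were lower without overlap, none past the threshold (Dnmt3b had a limma-voom adjusted p of 0.0113). Cdh2, also in the list, was higher without overlap, at 12.5 and 12.9 FPKM against 16.0 and 14.8 FPKM. Its adjusted p was 0.0607 by limma and 0.00424 by limma-voom. Of 6 markers of naive cells, 3 had rows, and their sum was at most 2.72 FPKM in any library. Fibroblast markers summed to 20.5 and 20.7 FPKM in the Luc libraries and 18.6 and 19.5 FPKM in the Tox4 libraries, with none of 4 tested past the threshold and 1 lower by limma-voom. In these bulk samples, fewer cells of a type and less RNA per cell cannot be told apart.

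Of the 48 Wnt pathway genes, 41 were tested and 7 (Sp5, Notum, Wnt5a, Wnt16, Rnf43, Lgr5 and Dkk3) had a mean under 1 FPKM. Sfrp1 and Fzd10 rose and no member was lower past the threshold, which made 4.88% of those tested against 4.51% of all genes. By limma-voom on the recovered reads 7 of 41 members were higher and 0 lower. Over all genes these were 782 (6.3%) and 725 (5.85%) of 12403. Restricted to the 9066 genes with means of 5 FPKM or more, limma called 6 of 28 members higher and 0 lower. Over those 9066 genes it called 365 (4.03%) and 476 (5.25%). At an unadjusted limma p under 0.05, 10 of 41 members were higher and 2 lower. Over all genes these were 1243 (10.0%) and 1431 (11.5%) of 12403. In 15 members (36.6%) both Tox4 libraries lay above both Luc libraries and in 9 (22.0%) both lay below, against 25.3% and 26.7% of all genes. The median difference was 0.01 over the 41 members and -0.0034 over all genes. Fzd9 and Dkk1 passed the filter only through the Tox4 libraries, their Luc means being under 1 FPKM. Both are among the 15 members higher without overlap. The filter left out Rnf43, lower without overlap with a Luc mean of 1.10 FPKM, and Lgr5, higher without overlap. The split of 15 and 9 therefore depends in part on the filter.

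**Figure D1:**
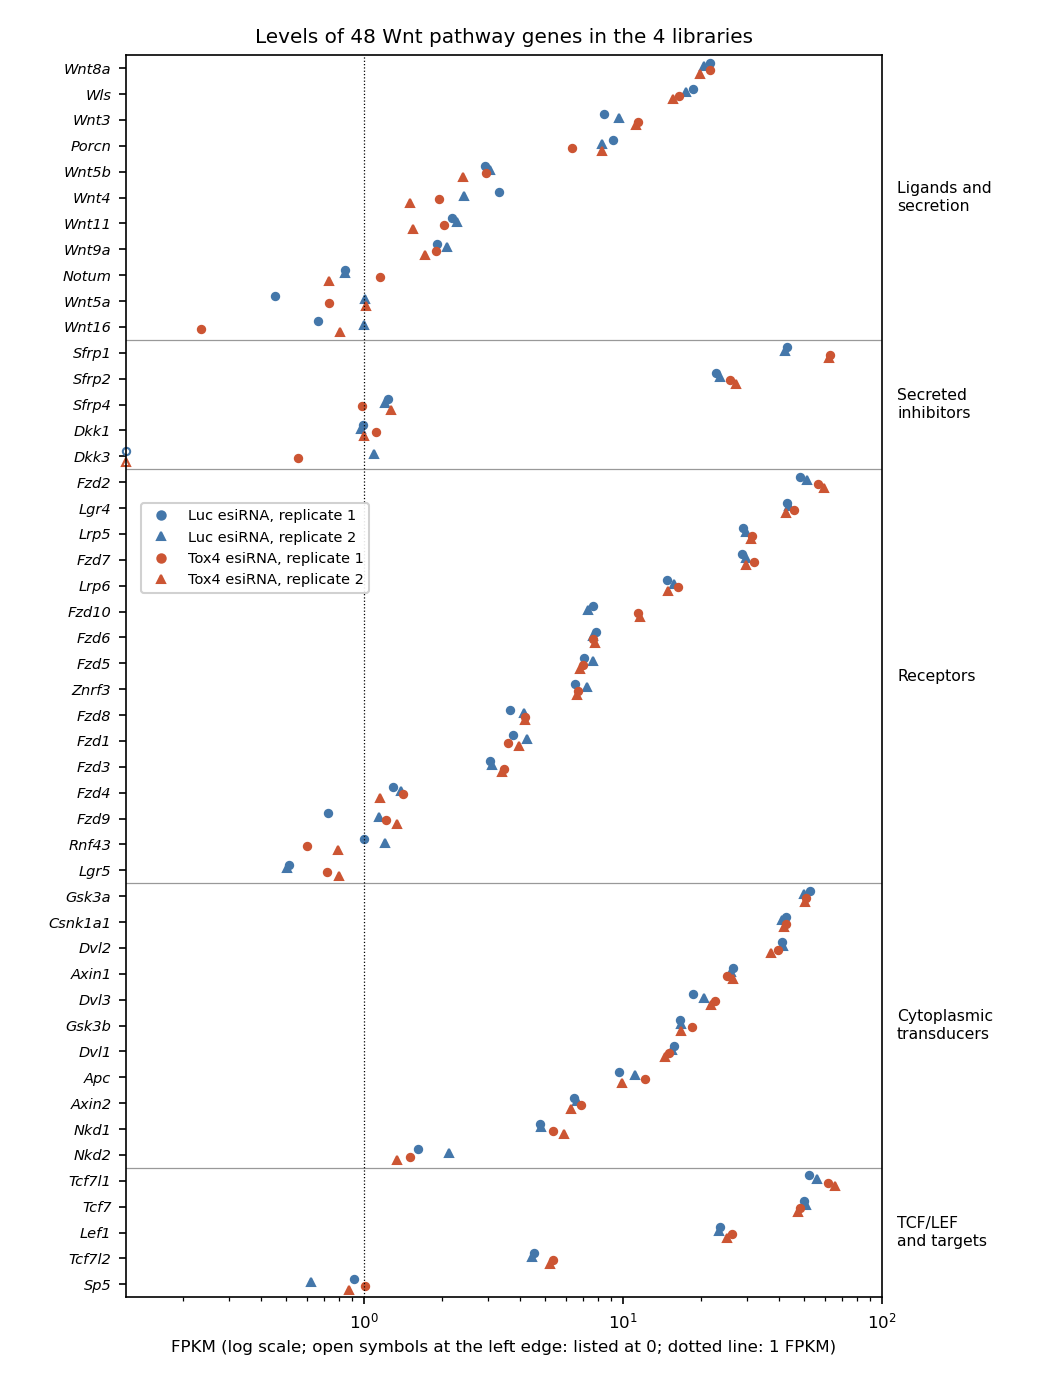
Level of each of the 48 Wnt pathway genes in each library, in FPKM on a log axis, grouped by role and ordered by mean. Blue symbols are Luc esiRNA, red symbols Tox4 esiRNA, circles replicate 1 and triangles replicate 2; open symbols at the left edge are values of 0. Tcf7l1, at 52.4 to 66.0 FPKM, had the highest mean, and the 7 genes with means under 1 FPKM lie around or left of the dotted line.

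**Figure D2:**
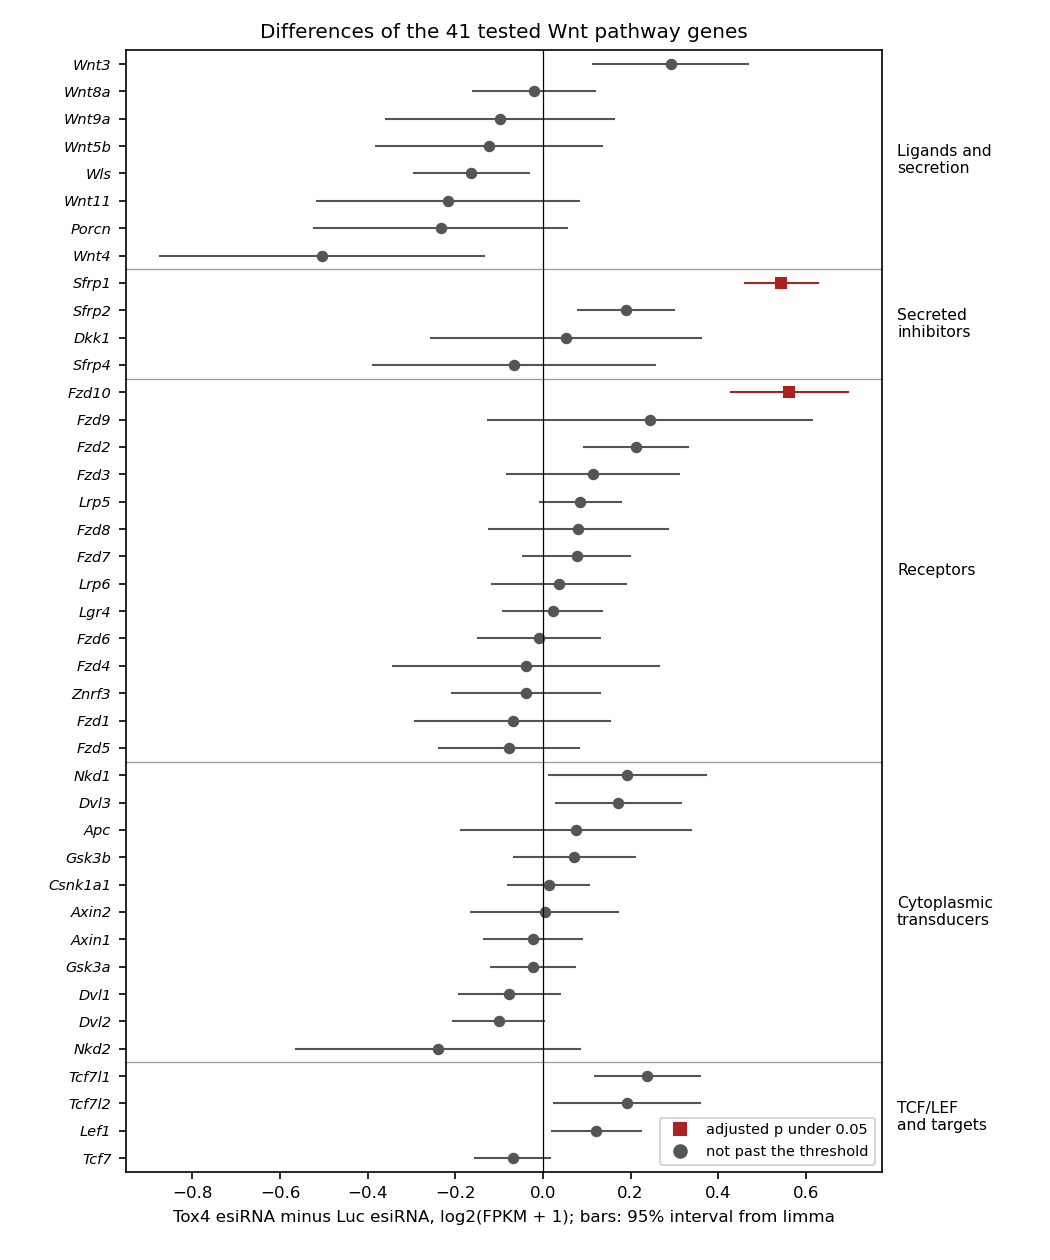
Difference between Tox4 and Luc esiRNA for the 41 tested genes, in log2(FPKM + 1), by role, with 95% intervals from limma. Red squares mark the genes past the adjusted threshold, Sfrp1 and Fzd10, both to the right of 0, and the differences run from -0.50 for Wnt4 to 0.56 for Fzd10.

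Among the 11 genes of ligands and their secretion, 8 were tested and none passed the threshold. Wnt8a, a ligand of the early streak, was at 21.6 and 20.6 FPKM in the Luc libraries and 21.7 and 19.9 FPKM in the Tox4 libraries. The groups overlapped, and the difference was -0.02 (95% interval -0.16 to 0.12, limma adjusted p = 0.884). Wnt3, the ligand whose loss stops streak formation in the mouse embryo, was at 8.42 and 9.67 FPKM in the Luc libraries and 11.4 and 11.2 FPKM in the Tox4 libraries. Both Tox4 libraries were above both Luc libraries, by 24.6% in the mean (9.04 ± 0.881 and 11.3 ± 0.142), with a difference of 0.29 (SE 0.07, limma adjusted p = 0.0851). On the recovered reads the limma-voom adjusted p for Wnt3 was 0.00474.

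Those ligands made up most of the summed FPKM of the ligand genes. Summed over the 8 Wnt genes, the level was 41.5 and 42.1 FPKM in the Luc libraries and 42.9 and 40.0 FPKM in the Tox4 libraries, so the groups overlapped. Wnt8a and Wnt3 together accounted for 72.4% and 71.9% of the sum in the Luc libraries and 77.2% and 77.6% in the Tox4 libraries. Of the other ligands, Wnt4, which acts in the kidney and gonad, had the lowest difference of the 41, -0.50 (95% interval -0.87 to -0.13, limma adjusted p = 0.126), from 3.32 and 2.42 FPKM to 1.95 and 1.50 FPKM. Only 33, 19, 15 and 10 reads stood behind those values. The authors' gene model for Wnt4, 511 bp, was 12.2% of its GENCODE exon length. Wnt11 (2.19 and 2.27 against 2.04 and 1.55 FPKM) and Wnt9a (1.91 and 2.09 against 1.90 and 1.71 FPKM) were also lower without overlap, and Wnt5b overlapped (2.93 and 3.06 against 2.95 and 2.41 FPKM). Their limma adjusted p-values were 0.373, 0.658 and 0.560.

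Of the genes that ready ligands for release, Wls, the carrier that takes Wnt proteins to the cell surface, was at 18.6 and 17.5 FPKM in the Luc libraries and 16.5 and 15.5 FPKM in the Tox4 libraries. Its values were lower without overlap, by -0.16 (95% interval -0.29 to -0.03, limma adjusted p = 0.153). Porcn, the acyltransferase that lipidates Wnt proteins, was at 9.16 and 8.29 FPKM against 6.35 and 8.29 FPKM, and its low mean came from Tox4 replicate 1. Across the 8 tested genes of this role 7 differences were below 0 and the median was -0.14.

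Of the 5 secreted inhibitors, Sfrp1 rose. Secreted frizzled-related proteins share the ligand-binding domain of Frizzled receptors and can bind Wnt proteins outside the cell. Sfrp1 (ENSMUSG00000031548, chr8:23411502-23449632 on the plus strand of GRCm38) was at 43.0 and 42.3 FPKM in the Luc libraries and 63.0 and 62.4 FPKM in the Tox4 libraries. The groups lay far apart for their spread, at 42.7 ± 0.491 and 62.7 ± 0.421 (SD, n = 2 each), or 46.9% higher. The difference was 0.54 (SE 0.03, 95% interval 0.46 to 0.63, limma adjusted p = 0.00263), on 2840 to 4153 reads per library. It passed the threshold in each of the 12 alternative fits, with a highest adjusted p of 0.038. The length of its gene model was 100% of the GENCODE exon length, and no gene on the opposite strand overlapped the GENCODE exons.

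Sfrp2, a second family member, was at 22.8 and 23.6 FPKM in the Luc libraries and 26.0 and 27.2 FPKM in the Tox4 libraries. These values did not overlap, with a difference of 0.19 (SE 0.05, limma adjusted p = 0.0762, and 0.0282 by limma-voom on the reads). Gm26771 shares 347 bp of exon with Sfrp2 on the opposite strand. Sfrp4 was near 1 FPKM and overlapped, from 0.977 to 1.27 FPKM over the 4 libraries. Together the 3 Sfrp genes summed to 67.0 and 67.1 FPKM in the Luc libraries and 89.9 and 90.8 FPKM in the Tox4 libraries, 34.8% higher, and Sfrp1 and Sfrp2 made up 98.5% of it on average. The Dickkopf protein Dkk1 blocks the Lrp co-receptors. Dkk1 was at 0.989 and 0.970 FPKM against 1.11 and 0.996 FPKM, a difference of 0.05 (95% interval -0.26 to 0.36, limma adjusted p = 0.858). Its reads numbered only 21 to 31 per library. Dkk3 rested on 0, 2, 1 and 0 reads over a gene model of 120 bp, 3.57% of its exon length. No comparison was possible at this depth.

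**Figure D3:**
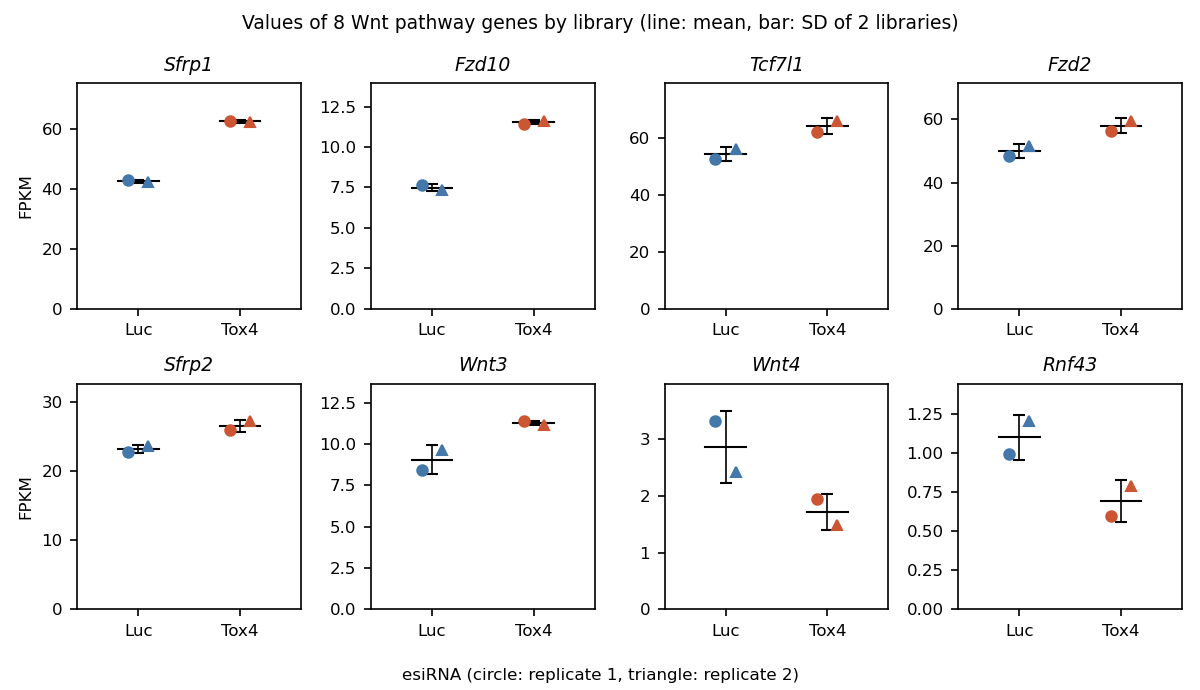
FPKM of 8 Wnt pathway genes in each library, on axes from 0. Circles are replicate 1 and triangles replicate 2, lines are means and bars the SD of 2 libraries. For Sfrp1 the Luc libraries sit at 42.3 and 43.0 and the Tox4 libraries at 62.4 and 63.0, while for Wnt4 and Rnf43 both Tox4 libraries lie below both Luc libraries at low levels.

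Among the 16 receptors and co-receptors, 14 were tested and Fzd10 rose. Fzd10, a Frizzled expressed in the embryo's streak and later in the neural tube, was at 7.64 and 7.34 FPKM in the Luc libraries and 11.4 and 11.6 FPKM in the Tox4 libraries. The means were 7.49 ± 0.213 and 11.5 ± 0.132 FPKM, 54.0% higher in the Tox4 libraries and without overlap. The difference was 0.56 (SE 0.05, 95% interval 0.43 to 0.70, limma adjusted p = 0.00881), on 329 to 504 reads per library. Without Luc replicate 1 the adjusted p was 0.0560 and without Luc replicate 2 it was 0.0751; the other 10 alternative fits kept it past the threshold. Fzd10 (ENSMUSG00000081683) lies at chr5:128600844-128604093 on the plus strand of GRCm38.

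Markers of other cell types, read from the same comparison, moved in both directions. Of 6 neural progenitor markers, 5 had rows, 4 were tested and 3 (Sox1, Fabp7 and Ncam1) were higher past the threshold, and the 5 summed to 77.7 and 76.5 FPKM in the Luc libraries and 91.2 and 91.2 FPKM in the Tox4 libraries. Nes, the most abundant of them, was lower without overlap, at 52.7 and 51.5 FPKM against 49.9 and 49.8 FPKM (limma adjusted p = 0.377), and Pax6 overlapped. Of 5 primitive streak markers, 3 had rows and 1, T, was lower past the threshold (by limma-voom also Eomes). Their sums were 22.8 and 21.5 FPKM against 14.3 and 13.3 FPKM. Of 5 markers of extraembryonic endoderm, 3 had rows and 1, Sparc, was lower, the only one tested, at 134 and 137 FPKM in the Luc libraries and 106 and 108 FPKM in the Tox4 libraries. Gata6 and Sox17 overlapped between the groups, at 0.501 to 1.22 FPKM, so that the sums of the 3 (136 and 139 against 107 and 110 FPKM) were nearly all Sparc. No marker with a row was at 0 in all libraries. Their part in the rises of Sfrp1 and Fzd10 was not tested.

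The most abundant receptor was Fzd2, at 48.3 and 51.5 FPKM in the Luc libraries and 56.4 and 59.6 FPKM in the Tox4 libraries. Its groups did not overlap, with means of 49.9 and 58.0 FPKM, and the difference of 0.21 (SE 0.05) had a limma adjusted p of 0.0686, and of 0.00204 by limma-voom. Lgr4, the receptor of R-spondins, was at 42.8 and 43.7 FPKM against 45.6 and 42.4 FPKM, with overlap and a difference of 0.02 (95% interval -0.09 to 0.14, limma adjusted p = 0.833). Of the co-receptors, Lrp5 was higher without overlap (29.1 and 29.8 against 31.4 and 31.3 FPKM, limma adjusted p = 0.270) and Lrp6 overlapped (14.7 and 15.7 against 16.4 and 14.9 FPKM).

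The other Frizzled genes lay below Fzd2. Fzd7 had 28.7 and 29.9 FPKM in the Luc libraries and 32.2 and 29.9 FPKM in the Tox4 libraries. Fzd6, Fzd5, Fzd1, Fzd8, Fzd3, Fzd4 and Fzd9 followed, with means over the 4 libraries between 1.10 and 7.74 FPKM. Their differences ran from -0.08 for Fzd5 to 0.24 for Fzd9, none past the threshold. Fzd3 (3.07 and 3.13 against 3.46 and 3.40 FPKM), Fzd8 (3.66 and 4.13 against 4.17 and 4.17 FPKM) and Fzd9 (0.726 and 1.14 against 1.22 and 1.33 FPKM) were higher without overlap, and Fzd5 (7.07 and 7.65 against 7.01 and 6.83 FPKM) was lower. Fzd9, on 30 to 39 reads per library, passed the filter only through the Tox4 libraries. Summed over the 10 Frizzled genes, the level was 112 and 118 FPKM in the Luc libraries and 128 and 130 FPKM in the Tox4 libraries (115 ± 4.26 and 129 ± 0.930), 12.1% higher without overlap. Fzd2 and Fzd7 held 68.7% to 69.0% of that sum in each library. Frizzled genes are close paralogs, and how the authors' counting treated reads with several matches is not given in the sources used here.

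Znrf3 and Rnf43 are ubiquitin ligases that remove Frizzled receptors from the surface, and both are themselves targets of beta-catenin. Znrf3 was at 6.53 and 7.22 FPKM in the Luc libraries and 6.71 and 6.62 FPKM in the Tox4 libraries, with overlap (difference -0.04, 95% interval -0.21 to 0.13, limma adjusted p = 0.804). Rnf43 lay around the filter and was not tested, with 0.995 and 1.20 FPKM in the Luc libraries and 0.599 and 0.790 FPKM in the Tox4 libraries. Both Tox4 libraries were below both Luc libraries, on 105, 100, 49 and 56 reads. With no filter on level its limma adjusted p was 0.368. In a limma-voom fit on the 12296 genes with at least 20 reads on average, chosen after seeing the data, Rnf43 was lower by -0.66 (SE 0.18, adjusted p = 0.0152). In that fit 7 of the 43 members tested were higher and 1 lower. Over all genes these were 833 (6.77%) and 796 (6.47%). Lgr5, a stem cell receptor of R-spondins, went the other way on 17 to 24 reads per library, from 0.511 and 0.501 FPKM to 0.719 and 0.795 FPKM, and was not past the threshold in that fit.

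**Figure D4:**
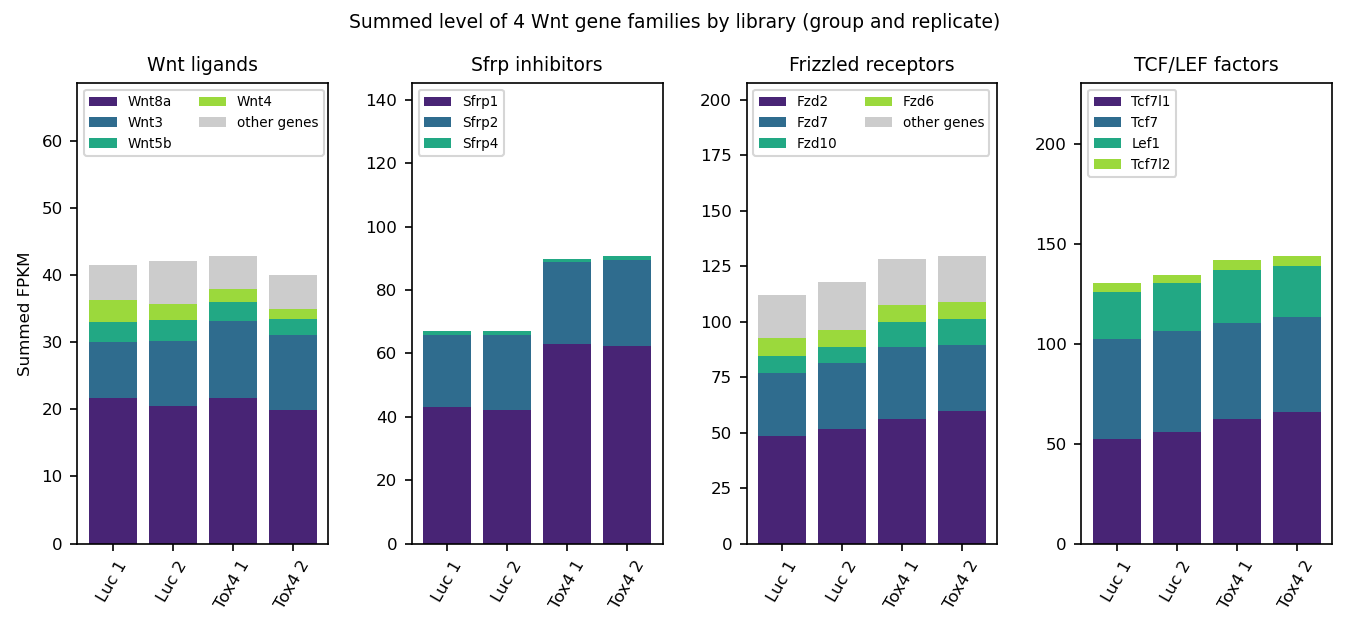
Summed FPKM of 4 gene families in each library, with bars from 0 split by gene. The Sfrp sum was 67.0 and 67.1 FPKM in the Luc libraries and 89.9 and 90.8 FPKM in the Tox4 libraries, while the sum of the Wnt ligands overlapped between the groups.

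None of the 11 cytoplasmic transducers and members of the destruction complex passed the threshold, and their median difference was 0.0039. Gsk3a, a kinase that phosphorylates beta-catenin, was at 52.5 and 50.1 FPKM in the Luc libraries and 50.7 and 50.3 FPKM in the Tox4 libraries. Csnk1a1, casein kinase 1 alpha, which primes that phosphorylation, was at 42.4 and 41.0 FPKM against 42.5 and 41.8 FPKM. For both genes the groups overlapped, and the 95% intervals of the difference were -0.12 to 0.07 for Gsk3a and -0.08 to 0.11 for Csnk1a1. The scaffold Axin1 (25.1 to 26.6 FPKM), the kinase Gsk3b (16.5 to 18.4 FPKM) and Apc (9.63 to 12.1 FPKM) overlapped as well.

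The 3 Dishevelled genes did not move together. Dvl2 was at 41.1 and 41.5 FPKM in the Luc libraries and 39.6 and 37.4 FPKM in the Tox4 libraries, and Dvl1 was also lower without overlap (15.7 and 15.5 against 15.0 and 14.5 FPKM). Dvl3 was higher without overlap, at 18.6 and 20.6 FPKM against 22.6 and 21.8 FPKM. Their differences were -0.10, -0.08 and 0.17, with limma adjusted p-values of 0.242, 0.411 and 0.165, and the sum of the 3 overlapped at 75.5, 77.6, 77.3 and 73.6 FPKM. Dvl2 shares 1151 bp of exon with Acadvl on the opposite strand, and use of strand in the counting is not given in the sources used here.

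The 4 TCF/LEF factors are the nuclear partners of beta-catenin, and none passed the threshold. Tcf7l1, which acts mainly as a repressor in pluripotent cells, was at 52.4 and 55.9 FPKM in the Luc libraries and 62.1 and 66.0 FPKM in the Tox4 libraries. It was 18.3% higher without overlap (54.2 ± 2.44 and 64.1 ± 2.75), a difference of 0.24 (SE 0.05, limma adjusted p = 0.0546). By limma-voom the adjusted p for Tcf7l1 was 0.000812. Lef1 (23.6 and 23.6 against 26.3 and 25.3 FPKM) and Tcf7l2 (4.53 and 4.46 against 5.35 and 5.20 FPKM) were likewise higher without overlap, with limma adjusted p-values of 0.166 and 0.182. Tcf7 went the other way, at 50.0 and 50.7 FPKM against 48.4 and 47.6 FPKM, a difference of -0.07 (limma adjusted p = 0.326). The 4 genes summed to 131 and 135 FPKM in the Luc libraries and 142 and 144 FPKM in the Tox4 libraries. Lef1 shares 1208 bp of exon with Gm43352 on the opposite strand, and Tcf7l1 shares 179 bp with Gm15401.

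The direct targets and feedback genes of the pathway showed no shared direction. Of 12 listed, 11 had rows, 7 were tested and none passed the threshold, with a median difference of 0.0039. Axin2 was at 6.43 and 6.65 FPKM in the Luc libraries and 6.86 and 6.28 FPKM in the Tox4 libraries. The Tox4 values lay on either side of the Luc values (6.54 ± 0.155 and 6.57 ± 0.414), and the difference was 0.0039 with a 95% interval of -0.16 to 0.17 (limma adjusted p = 0.981). Gm11670 shares 209 bp of exon with Axin2 on the opposite strand. Nkd1, an antagonist of Dishevelled, was higher without overlap, at 4.76 and 4.83 FPKM against 5.37 and 5.89 FPKM (difference 0.19, 95% interval 0.01 to 0.37, limma adjusted p = 0.206). Its relative Nkd2 was lower without overlap, at 1.61 and 2.12 FPKM against 1.50 and 1.34 FPKM (difference -0.24, limma adjusted p = 0.365).

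Several members lay close to the floor of the assay. Sp5, whose upstream bases hold the TCF/LEF core, was at 0.913 and 0.620 FPKM in the Luc libraries and 1.01 and 0.873 FPKM in the Tox4 libraries, on 15 to 28 reads, with overlap. Notum, a carboxylesterase that removes the lipid from Wnt proteins, was at 0.845 FPKM in both Luc libraries and 1.15 and 0.728 FPKM in the Tox4 libraries. Wnt16 (0.663 and 0.993 against 0.233 and 0.807 FPKM, 3 to 13 reads) and Wnt5a (0.453 and 1.00 against 0.730 and 1.01 FPKM, 4 to 7 reads) overlapped too. For 5 members, Dkk3, Wnt5a, Wnt4, Wnt16 and Lgr5, the authors' gene model held under 25% of the GENCODE exon length, so that their FPKM describe a short piece of the gene.

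Further genes of the pathway were read from the same fit, in lists drawn up with earlier results of these data known. Their shares past the threshold, here and below, are therefore no test of enrichment. Of 76 listed, 68 had rows and 65 were tested; 8 were higher and 2 lower, 15.4% against 4.51% of all genes. In the list for the canonical pathway 2 of 36 tested genes rose, Ctnnb1 and Cer1 (5.56%), and none was lower, against 1.89% and 2.62%. Ctnnb1, which encodes beta-catenin itself, was at 238 and 237 FPKM in the Luc libraries and 272 and 273 FPKM in the Tox4 libraries. That is 14.8% more, from 237 ± 0.656 to 272 ± 1.01 FPKM (difference 0.20, SE 0.03, limma adjusted p = 0.0301), and 759 bp of its exons are shared with Ulk4 on the opposite strand. Cer1, a secreted antagonist of Nodal and BMP, was at 7.82 and 8.29 FPKM against 10.3 and 10.7 FPKM (difference 0.35, limma adjusted p = 0.0350). Cxxc4, which encodes the Dishevelled-binding inhibitor Idax, was at 1.55 and 1.85 FPKM against 2.80 and 2.84 FPKM, without overlap (limma adjusted p = 0.0563). Its limma-voom adjusted p was 7.24e-05.

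In the planar polarity branch, which steers cell orientation without beta-catenin, 2 of 16 tested genes rose (12.5%) and none was lower, against 1.89% and 2.62% of all genes. Prickle1, a cytoplasmic core protein of that branch, was at 21.6 and 21.8 FPKM in the Luc libraries and 29.5 and 29.1 FPKM in the Tox4 libraries (difference 0.42, SE 0.04, limma adjusted p = 0.00792). Ptk7, a transmembrane pseudokinase that takes part in both branches, was at 132 and 135 FPKM against 159 and 165 FPKM (difference 0.28, SE 0.04, limma adjusted p = 0.0186). For each of these genes the 2 libraries of a group lay much closer to each other than to the other group.

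Of 13 tested genes listed as beta-catenin targets in the embryo, 4 rose and 2 fell, 46.2% against 4.51% of all genes. Because earlier results were known when the genes were listed, this share does not measure enrichment. T, the streak and mesoderm factor Brachyury, was at 12.2 and 12.6 FPKM in the Luc libraries and 5.31 and 5.59 FPKM in the Tox4 libraries. It fell by 1.06 (SE 0.06, limma adjusted p = 0.00228) and passed in all 12 alternative fits. Bmp4, a ligand of the BMP pathway, fell from 4.73 and 4.87 FPKM to 3.54 and 3.27 FPKM (limma adjusted p = 0.0492). Their neighbours in the streak, Eomes (3.93 and 3.49 against 2.99 and 2.77 FPKM, limma adjusted p = 0.155), Tbx6 (1.56 and 1.54 against 1.30 and 1.37 FPKM) and Fgf8 (66.8 and 63.5 against 60.2 and 64.2 FPKM), did not pass. By limma-voom Eomes was lower past the threshold (adjusted p = 0.0282). Over the 13 genes 8 differences were above 0 (61.5%, against 48.8% of all genes) and 5 below. Myc, Cd44, Sall4 and Sox4, the other genes tested, were above 0 and did not pass.

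The targets that rose were Id2 and 3 regulators of proliferation. Id2, an inhibitor of basic helix-loop-helix factors, was at 6.91 and 6.18 FPKM in the Luc libraries and 10.1 and 10.5 FPKM in the Tox4 libraries (difference 0.59, SE 0.07, limma adjusted p = 0.0146). The cyclin genes Ccnd2 (34.2 and 34.3 against 41.4 and 39.7 FPKM) and Ccnd1 (27.1 and 27.6 against 32.8 and 31.2 FPKM) and the factor Mycn (15.0 and 14.4 against 17.5 and 17.7 FPKM) rose with limma adjusted p-values of 0.0348, 0.0488 and 0.0475. Genes on the opposite strand share 1100 bp of exon with Ccnd1 and 740 bp with Ccnd2. Without Luc replicate 1, and likewise without Luc replicate 2, 0 of the 8 further genes that rose stayed past the threshold. Leaving out 1 library in turn, the highest adjusted p was 0.195 for Ctnnb1, 0.197 for Cer1, 0.0661 for Prickle1, 0.137 for Ptk7, 0.0851 for Id2, 0.179 for Ccnd2, 0.230 for Mycn, 0.236 for Ccnd1 and 0.234 for Bmp4. The list was drawn up with earlier results of these data known, and the neural and streak marker sums given above moved in the same comparison; their part in these differences was not tested.

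**Figure D5:**
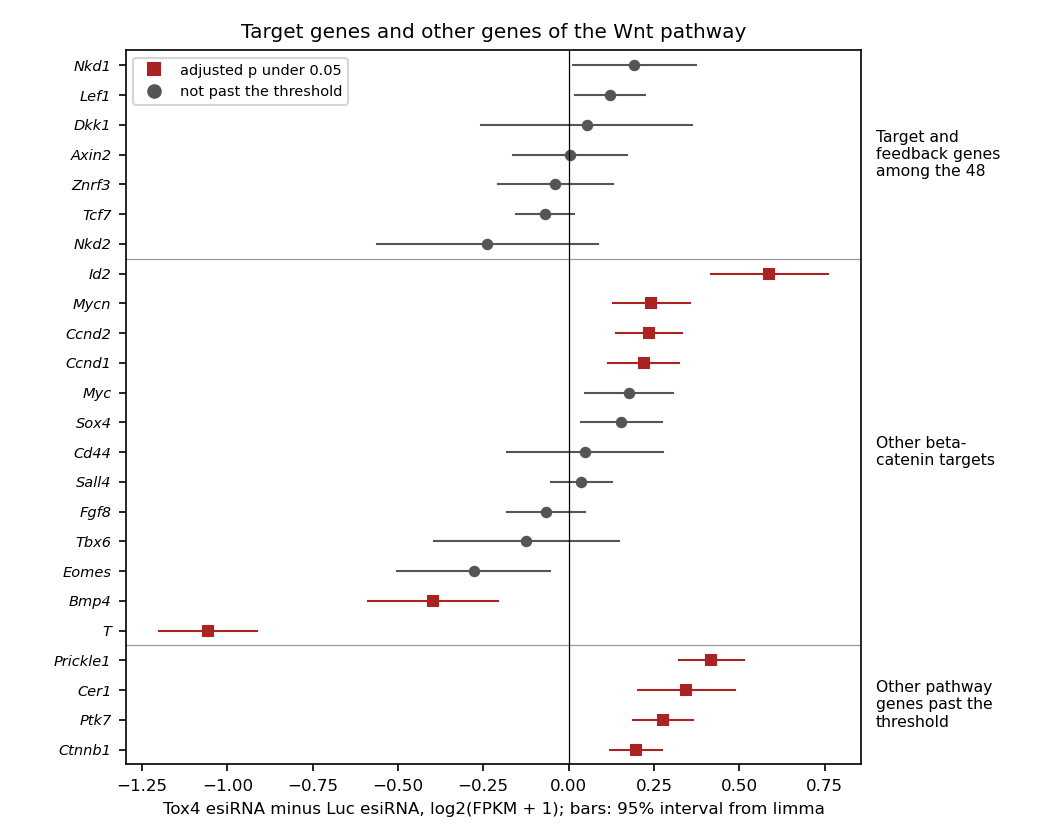
Difference between Tox4 and Luc esiRNA in log2(FPKM + 1), with 95% intervals from limma, for the tested target and feedback genes among the 48, for other beta-catenin targets and for the other pathway genes past the threshold. Red squares are past the adjusted threshold; Axin2 lies at 0.0039, T at -1.06 and Id2 at 0.59.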

How the data were processed

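Per the labels' protocols, polyadenylated RNA of 2 Luc esiRNA and 2 Tox4 esiRNA libraries was sequenced, and groups follow the sample titles. The authors deposited FPKM values for 15429 genes. The submitters' processing notes name CASAVA 1.8, STAR 2.3.0e and build GRCm38.p1; which program and annotation gave the counts, and whether strand was used, is not given in the sources used here. Log2(FPKM + 1) was tested for 12403 genes whose mean reached 1 FPKM with limma 3.58.1 in R 4.3.3 (two-sided, intensity trend, Benjamini-Hochberg adjustment, threshold 0.05, 2 residual and 4.01 prior degrees of freedom, no covariate). With 2 libraries against 2, an exact permutation test of 1 gene cannot go below a p of 0.333.

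Whole reads were worked back from the deposited FPKM as the smallest whole numbers that fit (100% of values, relative tolerance 1e-11; a common factor was chosen for 4.46% of genes). They came to 19008803 and 14998194 in Luc replicates 1 and 2 and to 14739221 and 12778044 in Tox4 replicates 1 and 2, with a median of 548 per tested gene and library. Replicates differed beyond sampling noise (chi-square per degree of freedom 1.63 and 1.94). Both steps were also run on simulated data with a single pooled spread for all genes, and the outcome is not given here. Coordinates, exon lengths and overlaps came from GENCODE M21, which held 98.7% of the identifiers.

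The members and gene lists were chosen with earlier results of these data known. Named with values were genes past the threshold, the 2 most abundant members of each role, the target and feedback genes, and members that did not overlap or lay under the filter. Alternatives were pseudocounts of 0.1 and 0.5, no filter, a mean of at least 5 FPKM, no trend, median-ratio size factors, limma-voom on the reads, the replicate number as a block, and each library left out.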

Additional observations from a re-analysis of the deposited data

How the results depend on the processing

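Over all genes, 234 were higher and 325 lower; the counts were 146 and 202 with no filter, 365 and 476 with a mean of at least 5 FPKM, 33 and 45 with no intensity trend, 782 and 725 by limma-voom, and 27 to 176 and 34 to 296 with 1 library left out. Members higher numbered 2; there were 6 with a mean of at least 5 FPKM (Fzd2, Sfrp2, Tcf7l1 and Wnt3 were added), 7 by limma-voom (also Dvl3), 7 by limma-voom on genes of at least 20 reads, which was added after seeing the data, and 1 to 3 with 1 library left out. Members lower numbered 0, and 1 (Rnf43) in that added fit. Of further pathway genes, 8 were higher and 2 lower; these were 5 and 1 with no filter, 0 and 1 with no trend, 13 and 3 by limma-voom, 1 lower with a mean of at least 5 FPKM, and 0 to 4 higher and 1 lower with 1 library left out. A left-out library leaves 1 in its group, assumed to vary like the other group.

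Same-numbered libraries showed no shared deviation across genes (correlation of deviations -0.04, 2 pairs). A single correlation cannot exclude that the numbers pair them, and the labels do not say. With the replicate number as a block, 222 genes were higher and 334 lower, 4 members were higher (Fzd2 and Tcf7l1 were added), and 5 further genes were higher and 1 lower.

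Of 33 genes followed over these settings, the sign changed with 1 library left out for 6, none past the threshold: Axin2 (-0.052 to 0.060), Csnk1a1 (-0.0094 to 0.037), Gsk3a (-0.056 to 0.011), Lgr4 (-0.029 to 0.073), Wnt8a (-0.081 to 0.040) and Znrf3 (-0.10 to 0.025). The summed levels, varied after seeing the data over size factors and left-out libraries, kept log2 ratios of 0.13 to 0.20 for Frizzled, 0.42 to 0.44 for Sfrp and 0.088 to 0.13 for TCF/LEF genes, while those of Wnt ligands (-0.062 to 0.037) and Dishevelled (-0.057 to 0.013) changed sign. The causes were not tested. Depth limits Wnt4, Wnt5a, Wnt16, Lgr5, Sp5, Notum, Dkk1 and Dkk3, with at most 33 reads in any library.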
